A study of Rattus norvegicus with 2 samples.

Results

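The immediate early genes of the AP-1 and Egr families and their companions were followed across the cells of rat dorsal root ganglia (DRGs). They are Fos, Fosb, Jun, Junb, Jund, Egr1, Egr3, Atf3, Ier2 and Nr4a1, 10 of the 30017 gene symbols counted. The list was chosen by name, and all 10 symbols were present in the counts. Messenger RNA was counted in single cells with the 10x Genomics 3′ v3 assay, in which each captured molecule carries a unique molecular identifier (UMI). There was 1 control library and 1 library with diabetic peripheral neuropathy (DPN), each a pool of DRGs (bilateral L3 to L6) from 5 rats, so no difference between the conditions has a replicate check and no test between them was made. All donors were male SD rats, 8 weeks old before the injection. The DPN rats had received 65 mg/kg streptozotocin (STZ), a toxin of the insulin-producing beta cells, as 1 injection into the abdomen, and only rats over the study's limit of blood glucose were kept. The control rats had received the citrate buffer. Ganglia of both groups were taken 8 weeks later, minced, digested warm with collagenase and then trypsin, and passed through a dead cell removal kit. The way in which the pools were prepared and the condition cannot be told apart in this design.

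Immediate early genes are transcribed within minutes of a stimulus, without new protein, and their messengers are short-lived. Growth factors, calcium, stress and injury reach them through MAP kinases, which act on serum response factor at CArG boxes and on CREB at cAMP response elements. Fos and Jun proteins pair into AP-1, a transcription factor that binds the site TGANTCA, while Egr proteins bind GC-rich sites. In DRGs, Fos and Egr1 are known as markers of activity, and Jun and Atf3 as genes of neurons with an injured axon. Such genes are also known to be induced while a tissue is dissociated.

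Promoter windows of 6 of the 10 genes (Fosb, Junb, Jund, Egr1, Ier2 and Nr4a1) were found in RefSeq (assembly GRCr8). Those of Fos, Jun, Egr3 and Atf3 are not printed here. Shown are the 250 bases upstream of the annotated start, 5′ to 3′ on the strand of the gene, for 4 members: Egr1, which rose with Fos in several cell types, Jund and Nr4a1, which went their own ways, and Ier2, which holds a full cAMP response element. Capitals mark CArG boxes and the core TGACG, which appears as its reverse complement where it lies on the other strand. Egr1 lies at chr18:26736828-26737077 on the plus strand, Jund at chr16:18769772-18770021 on the minus strand, Ier2 at chr19:40399123-40399372 on the plus strand and Nr4a1 at chr7:134259888-134260137 on the plus strand.
Egr1: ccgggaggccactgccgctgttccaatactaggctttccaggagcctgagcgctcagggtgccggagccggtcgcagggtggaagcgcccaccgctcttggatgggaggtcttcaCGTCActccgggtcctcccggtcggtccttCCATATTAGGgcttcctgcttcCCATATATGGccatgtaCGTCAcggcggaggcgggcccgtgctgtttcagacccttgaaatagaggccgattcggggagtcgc
Jund: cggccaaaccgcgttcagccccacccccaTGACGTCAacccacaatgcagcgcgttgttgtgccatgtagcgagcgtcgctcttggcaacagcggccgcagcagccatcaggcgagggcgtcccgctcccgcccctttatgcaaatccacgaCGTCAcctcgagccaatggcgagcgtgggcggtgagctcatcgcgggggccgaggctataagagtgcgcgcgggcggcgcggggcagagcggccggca
Ier2: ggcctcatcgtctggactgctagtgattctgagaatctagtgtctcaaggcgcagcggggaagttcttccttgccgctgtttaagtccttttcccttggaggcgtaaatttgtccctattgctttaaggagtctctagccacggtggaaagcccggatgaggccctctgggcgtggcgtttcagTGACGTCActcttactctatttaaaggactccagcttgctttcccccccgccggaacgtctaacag
Nr4a1: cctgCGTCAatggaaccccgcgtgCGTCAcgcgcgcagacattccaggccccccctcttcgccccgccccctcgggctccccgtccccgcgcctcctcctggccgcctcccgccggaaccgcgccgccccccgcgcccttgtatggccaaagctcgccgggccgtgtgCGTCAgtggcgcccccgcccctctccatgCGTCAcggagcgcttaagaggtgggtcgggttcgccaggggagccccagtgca

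Egr1 held 2 CArG boxes, at -105 and -83 from the start, and 2 TGACG cores, at -135 and -66. A CArG box was present in 501 of the 33469 windows of the same length, and a TGACG core on either strand in 18.2%. The full palindrome TGACGTCA, which contains the core on both strands, occurred in Jund at -221 and in Ier2 at -66, and in 1.59% of all windows. Jund also held another core at -98 and the Egr site GCGTGGGCG at -76, which 0.478% of windows hold on either strand. Nr4a1 had 4 cores, at -246, -226, -82 and -53. Junb had 1 core, at -155, and a TATAAA box at -49. Among the motifs searched Fosb had only a TATAAA on the other strand, at -180. TATAAA occurred on either strand in 12.9% of windows. The AP-1 site TGANTCA was in none of the 6 windows and in 6.34% of all windows. These are matches of letters in the reference and were not measured in the cells.

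The control library held 11011 barcodes with a median of 8993 UMIs, and the DPN library 13168 with a median of 5919. The 10 members together took 1.18% of all UMIs of the control library and 1.69% of those of the DPN library. Cells were gated by the summed UMIs of a few defining genes per 10000, at under 20% mitochondrial UMIs and at least 1000 UMIs (500 for the neuron gate), which put 54.4% of control and 46.9% of DPN barcodes into at least 1 of 6 gates. For the control and then the DPN library the gates held 4135 and 3012 satellite glia, 347 and 481 myelinating Schwann cells, 802 and 1213 endothelial cells, 385 and 584 smooth muscle cells, 211 and 328 fibroblasts, and 186 and 701 cells of the neuron gate. Of these last, 61 control and 485 DPN cells had under 2500 UMIs, so values of the neuron gate mix such shallow cells with deep ones, and both are taken apart further on. In each library, the marker list of a type that its gate had not used had its highest summed level in that gate, with no gene of it at 0 there. These lists were lower in the DPN library for satellite glia (2353 and 1386 counts per 1000000 UMIs, CPM), myelinating Schwann cells (42836 and 35552), smooth muscle (12624 and 8383), fibroblasts (34193 and 25730) and the neuron gate (13310 and 11700), and close in endothelium (1771 and 1783). The satellite sum followed Ptgds, at 1728 and 822 CPM, while Slc1a3 (65.9 and 101 CPM) and Kcnj10 (4.02 and 5.78 CPM) were higher in the DPN library. Lists of macrophages, T and NK cells, red blood cells and neutrophils summed to at most 512 CPM in any gate. Their sums ranged from 0.423 to 449 CPM over the control gates and from 0 to 512 over the DPN gates. Red cell genes in the Schwann cell gate, at 6.34 and 512 CPM, and neutrophil genes in the smooth muscle gate, at 229 and 2.47, differed most, and their part in the results was not tested. The libraries shared 38 barcodes, of which 20 control and 17 DPN cells were in a gate.

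A level below is the summed UMIs of a gene over the cells of a gate per 1000000 UMIs of those cells (CPM), and a ratio is the DPN level over the control level. Intervals are exact, at 95%, and cover counting error only. A gene was counted with at least 50 UMIs over both libraries in the gate, and it is said to have risen at a ratio of at least 1.5, or fallen at a ratio of at most 0.667, with an interval that leaves out 1. By this rule Fos, Fosb, Jun, Egr1 and Egr3 rose in satellite glia, which is 5 of 10 members, where 27.2% of the 11865 counted genes rose. In fibroblasts the same genes and Atf3 rose, 6 of 10, against 25.7% of 6382 genes. Fosb, Jun, Jund and Egr3 rose in endothelium, 4 of 10, against 19.6% of 10436 genes. In the neuron gate 5 of 9 counted members rose (Fos, Fosb, Jun, Atf3 and Ier2), against 23.2% of 11013 genes. In myelinating Schwann cells Fos and Egr1 rose, 2 of 10 and no more than the 20% of all 6607 genes. In smooth muscle Jund alone rose, 1 of 10, where 20.1% of 7170 genes did. With cells in more than 1 gate left out, no member rose in myelinating Schwann cells, where 18.9% of genes did. With the gate threshold doubled none rose in smooth muscle, against 17.7% of genes. Only Fos and Jun then rose in the neuron gate, 2 of 9, near the 22.1% of all genes.

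No member fell in any of the 6 gates, while 2.43% of counted genes fell in satellite glia, 5.16% in myelinating Schwann cells, 4.97% in endothelium, 3.89% in smooth muscle, 3.93% in fibroblasts and 2.20% in the neuron gate. The median log2 ratio of the members was 0.66 in satellite glia, 0.17 in myelinating Schwann cells, 0.51 in endothelium, 0.26 in smooth muscle, 0.72 in fibroblasts and 0.71 in the neuron gate. The median of all counted genes was itself above 0 in every gate, at 0.21, 0.10, 0.08, 0.12, 0.20 and 0.11 in the same order. When that median was set to 0, 18.6% of genes rose and 7.91% fell in satellite glia, 15.7% and 9.26% in myelinating Schwann cells, 16.5% and 7.01% in endothelium, 15.9% and 7.29% in smooth muscle, 17.1% and 10.4% in fibroblasts, and 20.2% and 3.94% in the neuron gate. The members risen were then 5 in satellite glia, 3 in endothelium (Fosb, Jund and Egr3), 3 in fibroblasts (Fosb, Atf3 and Egr1) and 5 in the neuron gate, and 0 in myelinating Schwann cells and smooth muscle.

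**Figure D1:**
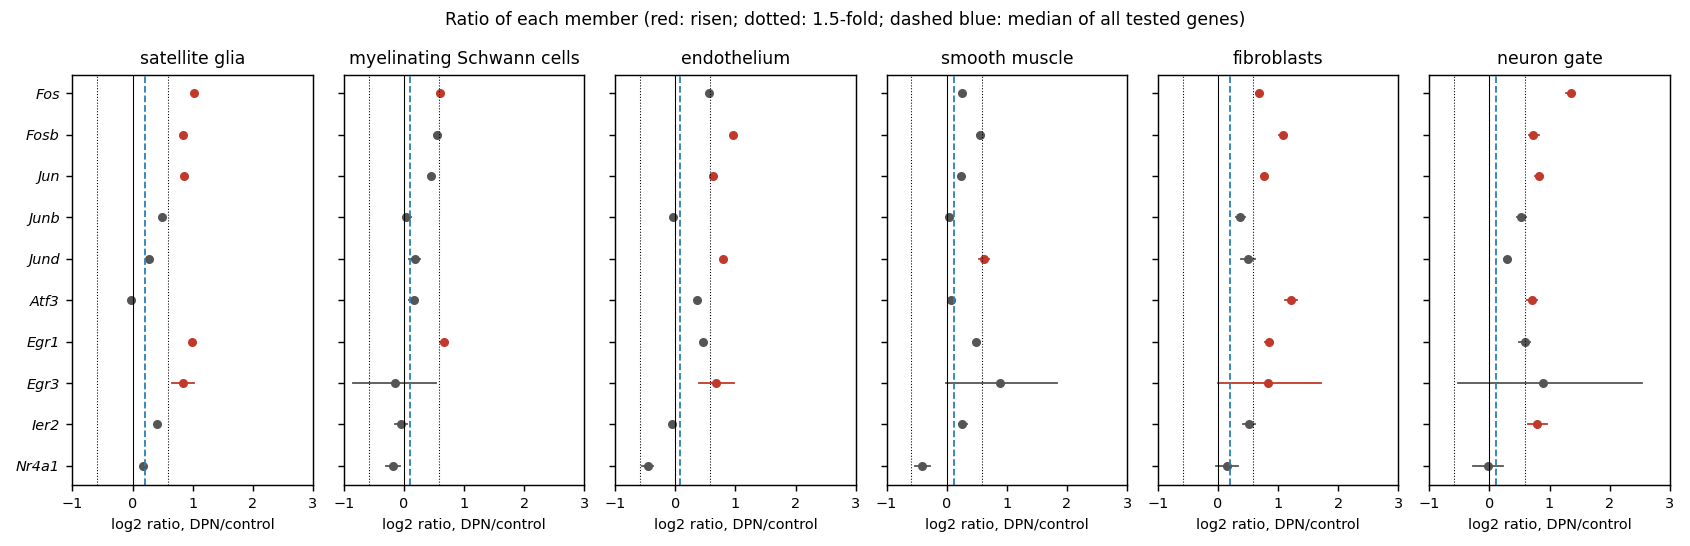
The log2 ratio of DPN over control (horizontal axis) is drawn for each of the 10 members in each of the 6 gates, with exact 95% intervals as bars; red points had risen, the dotted lines mark 1.5-fold and the dashed line the median of all counted genes. Fos, Fosb, Jun and Egr1 lie right of the dotted line in satellite glia and fibroblasts, and Nr4a1 lies left of 0 in myelinating Schwann cells, endothelium and smooth muscle.

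Fos encodes the AP-1 subunit that must pair with a Jun protein to bind DNA. Its level in satellite glia was 2247 CPM in the control library (2235 to 2259) and 4539 in the DPN library (4517 to 4562), a ratio of 2.02 (2.01 to 2.04). In fibroblasts it stood at 3490 and 5577 CPM, a ratio of 1.60 (1.55 to 1.65), and in myelinating Schwann cells at 3493 and 5311 CPM, a ratio of 1.52 (1.48 to 1.56). Fos had thus risen in these 3 types and in the neuron gate, at 139 and 353 CPM with a ratio of 2.55 (2.43 to 2.68). In endothelium (4216 and 6192 CPM) the ratio of 1.47 (1.45 to 1.49) was just under the limit. Smooth muscle, where the control level of Fos was highest, had the lowest ratio, 1.20 (1.17 to 1.23), between 5492 and 6580 CPM.

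Fosb, a paralogue of Fos whose truncated product is long-lived, was more even over the gates. It rose in 4 of the 6 gates, and its ratio was under 1.47 in no whole gate. Fibroblasts had the largest difference, from 1478 CPM (1417 to 1541) to 3112 CPM (3041 to 3183), a ratio of 2.11 (2.01 to 2.21). In endothelium Fosb stood at 1244 and 2430 CPM, a ratio of 1.95 (1.91 to 1.99), in satellite glia at 1240 and 2205 CPM, a ratio of 1.78 (1.76 to 1.80), and in the neuron gate at 103 and 171 CPM, a ratio of 1.66 (1.57 to 1.77). In the deep cells of the neuron gate, at 94.0 and 126 CPM, the ratio of 1.35 (1.26 to 1.44) was no longer a rise. The ratios of 1.47 in myelinating Schwann cells (1496 and 2200 CPM) and in smooth muscle (1761 and 2590 CPM) stayed under the limit.

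Jun, the AP-1 subunit that can also pair with itself and that is tied to axon injury in sensory neurons, rose in satellite glia, where it stood at 2282 and 4108 CPM, with a ratio of 1.80 (1.79 to 1.81). Its ratio was 1.70 (1.65 to 1.76) in fibroblasts, at 3342 and 5684 CPM, and 1.55 (1.54 to 1.57) in endothelium, at 3701 and 5752 CPM. The neuron gate had 216 CPM in the control library and 384 in the DPN library, a ratio of 1.78 (1.70 to 1.85). In myelinating Schwann cells (2559 and 3486 CPM, ratio 1.36) and smooth muscle (4162 and 4902 CPM, ratio 1.18) the level of Jun was higher in the DPN library without reaching the limit.

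Junb and Jund are the other Jun proteins. Junb can restrain the activity of Jun, and Jund is the member with the steadiest expression in resting cells. Junb rose in no gate, with ratios from 0.977 (0.962 to 0.992) in endothelium, where it stood at 2759 and 2695 CPM, to 1.44 (1.37 to 1.52) in the neuron gate, at 129 and 186 CPM. Its ratio was 1.40 in satellite glia (1044 and 1461 CPM), 1.29 in fibroblasts (1504 and 1942 CPM), and 1.03 in myelinating Schwann cells (1653 and 1703 CPM) and in smooth muscle (3467 and 3563 CPM). Jund was called in other cells. It rose in endothelium, from 914 CPM (896 to 933) to 1589 CPM (1568 to 1610), a ratio of 1.74 (1.70 to 1.78), and in smooth muscle, at 810 and 1241 CPM with a ratio of 1.53 (1.45 to 1.62). In satellite glia (994 and 1204 CPM, ratio 1.21), myelinating Schwann cells (721 and 816 CPM, ratio 1.13), fibroblasts (516 and 729 CPM, ratio 1.41) and the neuron gate (228 and 281 CPM, ratio 1.23) it did not reach the limit. The vascular types thus had the highest ratios of Jund, while their ratios of Junb were 0.977 and 1.03.

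Atf3, a stress-induced partner of Jun proteins that is the usual label of injured sensory neurons, differed most between cell types. In fibroblasts it rose from 723 CPM (681 to 767) to 1674 CPM (1623 to 1726), a ratio of 2.31 (2.16 to 2.48), the highest of any member in that type. In the neuron gate it stood at 103 and 168 CPM, a ratio of 1.64 (1.54 to 1.74), and in the deep cells of that gate, at 99.4 and 134 CPM, the ratio of 1.35 was no longer a rise. In satellite glia the level of Atf3 was 1432 CPM in the control library and 1402 in the DPN library, a ratio of 0.979 (0.968 to 0.990), beside the risen Fos, Jun and Egr1 of the same cells. That direction did not hold at a like mitochondrial share. Over bins of it the Atf3 ratio was 1.20 (1.13 to 1.27) at 5 to 10%, 1.03 (1.01 to 1.04) at 10 to 15% and 1.08 (1.06 to 1.10) at 15 to 20%. Under 5% its interval held 1. Over bins of depth the ratio was 0.947 (0.919 to 0.976) at 5000 to 10000 UMIs and 0.949 (0.936 to 0.962) at 10000 to 20000. In the other depth bins its interval held 1. The ratios of 1.29 in endothelium (1942 and 2510 CPM), 1.12 in myelinating Schwann cells (1234 and 1380 CPM) and 1.05 in smooth muscle (2231 and 2351 CPM) were under the limit.

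Egr1, a zinc finger factor that follows MAP kinase activity closely and whose promoter is shown above, rose in 3 of the types in which Fos had risen. It rose in satellite glia from 1059 CPM (1050 to 1067) to 2112 CPM (2097 to 2128), a ratio of 1.99 (1.97 to 2.02). Egr1 also rose in fibroblasts, from 1686 to 3038 CPM with a ratio of 1.80 (1.72 to 1.89), and in myelinating Schwann cells, from 1291 to 2058 CPM with a ratio of 1.59 (1.52 to 1.67). The remaining types were under the limit, with ratios of 1.40 in smooth muscle (2898 and 4071 CPM), 1.37 in endothelium (2363 and 3243 CPM) and a log2 ratio of 0.58 in the neuron gate (99.8 and 149 CPM), just under that of 1.5-fold. Egr3, an Egr factor best known from muscle spindles and lymphocytes, was rare. It was at 8.24 and 14.8 CPM in satellite glia, a ratio of 1.79 (1.58 to 2.03), and at 13.5 and 21.6 CPM in endothelium, a ratio of 1.60 (1.31 to 1.97). The call in fibroblasts rested on 65 UMIs, with a ratio of 1.78 and an interval that ran from just above 1 to 3.29, and the interval in smooth muscle, on 52 UMIs, held 1 (ratio 1.84, 0.996 to 3.55). In myelinating Schwann cells Egr3 had 77 UMIs and a ratio of 0.899 (0.558 to 1.44), and in the neuron gate its 22 UMIs were too few to be counted.

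Ier2, a nuclear protein induced by growth factors, rose in the neuron gate, from 32.4 CPM (29.6 to 35.4) to 56.3 CPM (53.2 to 59.6), a ratio of 1.74 (1.56 to 1.94). In the deep cells of that gate it stood at 29.9 and 39.2 CPM, a ratio of 1.31 (1.17 to 1.48), which was no rise. Elsewhere its ratio was 1.43 in fibroblasts (728 and 1043 CPM), 1.32 in satellite glia (449 and 591 CPM), 1.20 in smooth muscle (1377 and 1654 CPM), and 0.964 in both endothelium (1528 and 1473 CPM) and myelinating Schwann cells (671 and 647 CPM). Nr4a1, an orphan nuclear receptor that acts without a known natural ligand, was the 1 member whose interval lay wholly under 1 in 3 types. It stood at 218 CPM (209 to 227) and 158 CPM (152 to 165) in endothelium, a ratio of 0.726 (0.685 to 0.771). In smooth muscle the values were 455 and 344 CPM, a ratio of 0.756 (0.692 to 0.826), and in myelinating Schwann cells 560 and 494 CPM, a ratio of 0.883 (0.815 to 0.956). These ratios did not pass the limit for a fall. In satellite glia Nr4a1 was at 217 and 245 CPM (ratio 1.13), in fibroblasts at 260 and 289 CPM (ratio 1.11) and in the neuron gate at 15.6 and 15.4 CPM (ratio 0.987).

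**Figure D2:**
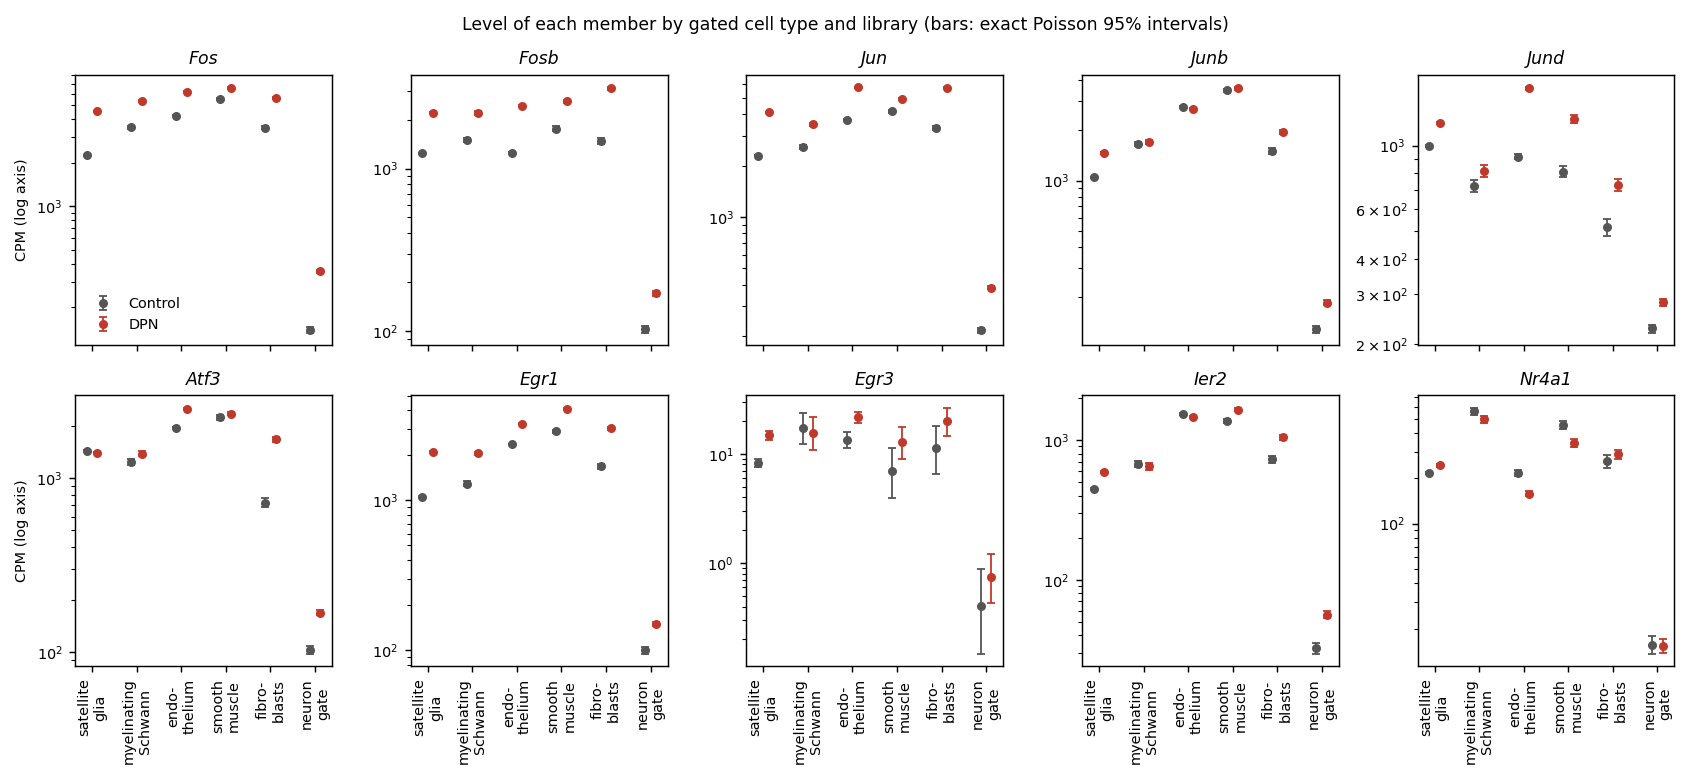
The level of each of the 10 members (vertical log axis, CPM, with a scale of its own for each gene) is drawn for the 6 gates, in grey for the control and in red for the DPN library, with exact Poisson 95% intervals as bars. The neuron gate is lowest in all 10 plots, Nr4a1 is highest in myelinating Schwann cells, and the DPN point of Fos is above the control point in each gate.

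The order of the cell types was much alike for most members. The neuron gate had the lowest level of all 10 genes in both libraries, apart from the next type by intervals that did not overlap. Smooth muscle was highest for Fos, Junb and Egr1 in both libraries and for Fosb, Jun and Atf3 in the control library. In the DPN library fibroblasts had the highest Fosb level, and endothelium the highest levels of Jun and Atf3, where the Jun level of 5752 CPM and that of 5684 CPM in fibroblasts had overlapping intervals. The highest level was 39.6 times the lowest for Fos in the control library and 18.6 times in the DPN library. For Jund these spans were only 4.37 and 5.66 times. Jund was also the 1 member with its highest control level in satellite glia. Nr4a1 was highest in myelinating Schwann cells in both libraries, at 36.0 and 32.2 times its level in the neuron gate. For Egr3 the intervals of all neighbours among the 5 non-neuronal types overlapped in both libraries.

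To compare shares of cells at equal depth, each gated cell was thinned to 500 UMIs. At that depth Fos was seen in 51.0% of control (49.5 to 52.6) and 77.0% of DPN satellite glia (75.4 to 78.5), while before thinning 98.5% and 99.4% of these cells had a Fos UMI. Egr1 was seen in 35.4% of control and 58.9% of DPN satellite glia, and Atf3 in 47.1% and 43.9%. At least 4 of the 10 members were found in 47.0% and 71.4% of satellite glia, 64.7% and 85.7% of endothelial cells, 54.5% and 78.0% of fibroblasts, 76.9% and 86.8% of smooth muscle cells and 49.9% and 58.8% of myelinating Schwann cells, for the control and then the DPN library. No gated type is known to lack these genes, so no share could be set against a type without them. The neuron marker list summed to 126 and 209 CPM in satellite glia, against 13310 and 11700 in the neuron gate. Whether free RNA or cells captured together gave that sum was not tested.

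Within satellite glia of at least 10000 UMIs (3525 control and 1892 DPN cells) the difference was a shift of most of the cells. Fos had percentiles 10, 50 and 90 of 2.35, 12.3 and 55.7 UMIs per 10000 in the control library, and of 8.85, 40.4 and 82.1 in the DPN library. The median control cell thus lay a little above percentile 10 of the DPN cells, and the upper ends lay closer together. Jun had medians of 19.3 and 39.4 per 10000 and Egr1 of 7.38 and 18.4, while percentile 10 of Atf3 was at 3.42 and 2.51 and its median in DPN cells, at 11.8, did not exceed that in control cells. The 10 members together had a median of 95.4 UMIs per 10000 in control and 167 in DPN cells of this depth.

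Over the same cells the members fell into sets, given here as descriptions, since cells of 1 library share its preparation. On the scale of log2(UMIs per 10000 + 1), Pearson's r in control satellite glia was 0.79 between Fos and Egr1, 0.76 between Fos and Junb and 0.67 between Fos and Jun. In DPN satellite glia these values were 0.72, 0.72 and 0.49. Fos went less with its paralogue Fosb (0.35 and 0.25) and hardly with Atf3 (0.06 and 0.03). Jund ran against Fos, at -0.29 in control and -0.18 in DPN cells, and with Atf3, at 0.38 and 0.32. Endothelial cells of the same depth (413 control and 561 DPN) differed in this, with Fos and Atf3 at 0.52 and 0.33 and Fos and Jund at 0.24 and 0.14. The r of Fos with the mitochondrial share in satellite glia was -0.06 in control and 0.14 in DPN cells, and with log2 UMIs it was 0.06 and 0.02.

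**Figure D3:**
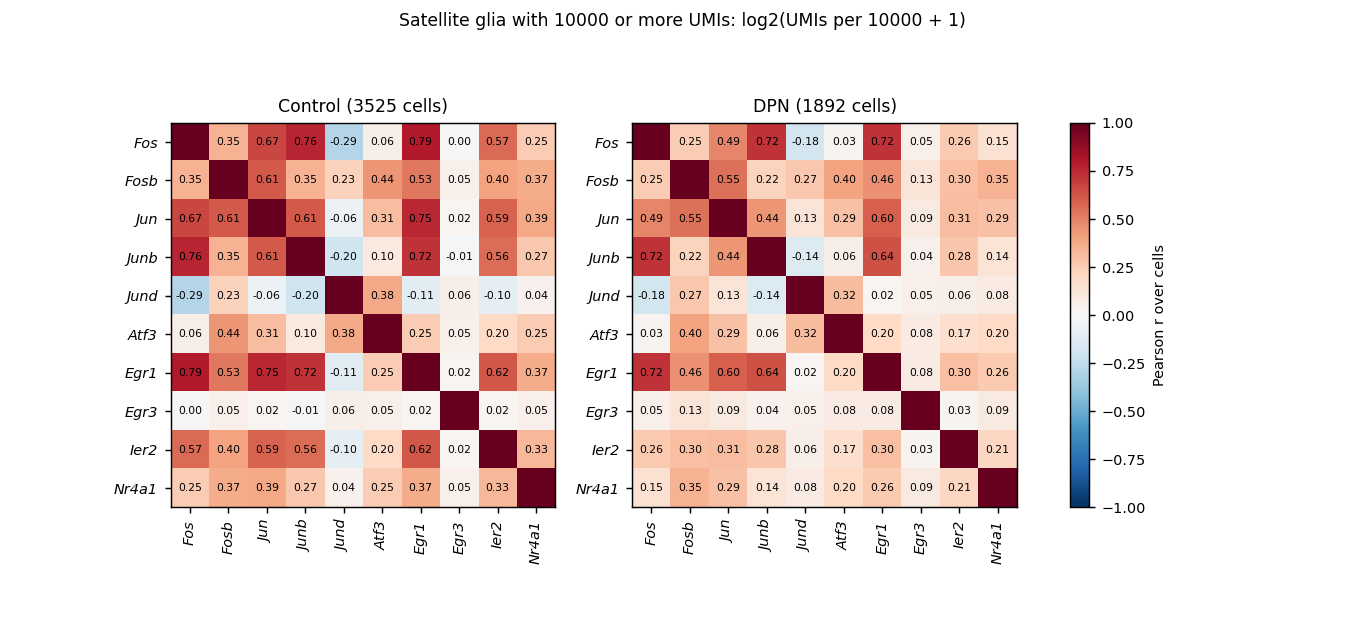
Each square is Pearson's r between 2 members over satellite glia with at least 10000 UMIs, for 3525 control cells on the left and 1892 DPN cells on the right, with blue for negative and red for positive values. Fos, Jun, Junb and Egr1 form a red block in both libraries, and the squares of Jund with Fos and Junb are blue.

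The neuron gate held cells of very unequal depth, and its composition differed between the libraries. Cells with at least 20000 UMIs made up 108 of the 186 control cells (58.1%) and 184 of the 701 DPN cells (26.2%), and cells under 2500 UMIs made up 32.8% and 69.2%. The deep cells carried the neuron marker list at 13386 CPM in the control and 11853 CPM in the DPN library. The shallow cells carried it at 4295 and 5980 CPM. They held the satellite genes Fabp7 and Tyrp1 at 433 and 402 CPM, against 29.5 and 12.6 CPM in the deep cells. The list of myelinating Schwann cells was the highest of the other types there, at 1410 and 973 CPM. In the deep cells it was at 51.4 and 51.0 CPM. Red cell genes were at 16.0 and 599 CPM and neutrophil genes at 16.0 and 362 CPM in the shallow cells. The members summed to 6298 CPM in shallow control cells and 16115 CPM in shallow DPN cells, and to 1014 and 1402 CPM in the deep cells. Whether the shallow cells are neurons was not tested.

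In the deep cells of the neuron gate 2 of 9 members rose and 0 fell, where 21.8% and 2.83% of the 10843 counted genes did, so that the count of rises was near the background. Fos stood at 129 CPM (123 to 135) in the control and 260 CPM (253 to 267) in the DPN library, a ratio of 2.02 (1.92 to 2.13). Jun was at 207 and 317 CPM, a ratio of 1.53 (1.46 to 1.59). Both genes therefore had risen with and without the shallow cells. The median log2 ratio of the 9 members was 0.39 in the deep cells, against 0.08 over all genes. The ratios of Fosb and Atf3 were both 1.35 (1.26 to 1.44), with Fosb at 94.0 and 126 CPM and Atf3 at 99.4 and 134 CPM, and Egr1 had 1.15 (1.08 to 1.23). The ratio of Nr4a1 was 0.748 (0.619 to 0.903). Among the shallow cells 8 of 9 members rose, with Fos at 1330 and 3990 CPM and Egr1 at a ratio of 2.80 (2.03 to 3.95). Of the 1667 genes counted there 9.54% rose and 14.4% fell. The control side of this comparison was small, at 61 cells with 393 member UMIs. At 500 to 1000 UMIs the summed members had a ratio of only 1.21 (1.08 to 1.37), over 40 control and 358 DPN cells. At 1000 to 2500 UMIs it was 8.56 (6.83 to 10.9), over 21 control and 127 DPN cells. The level of Fos in the deep cells was 5.73% of that in satellite glia in both libraries. Jund was at 22.5% and 21.8% of its satellite level, the highest of the members. Fabp7 stood at 0.786% and 0.346% and Tyrp1 at 1.26% and 0.640% of their satellite level. The other satellite markers ran from 0 to 1.59% in the control and from 0.716% to 2.51% in the DPN library. Fos was higher in the other non-neuronal gates than in satellite glia, so satellite genes alone do not measure free Fos RNA. The part of carried-over RNA in the deep cells was not tested.

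**Figure D4:**
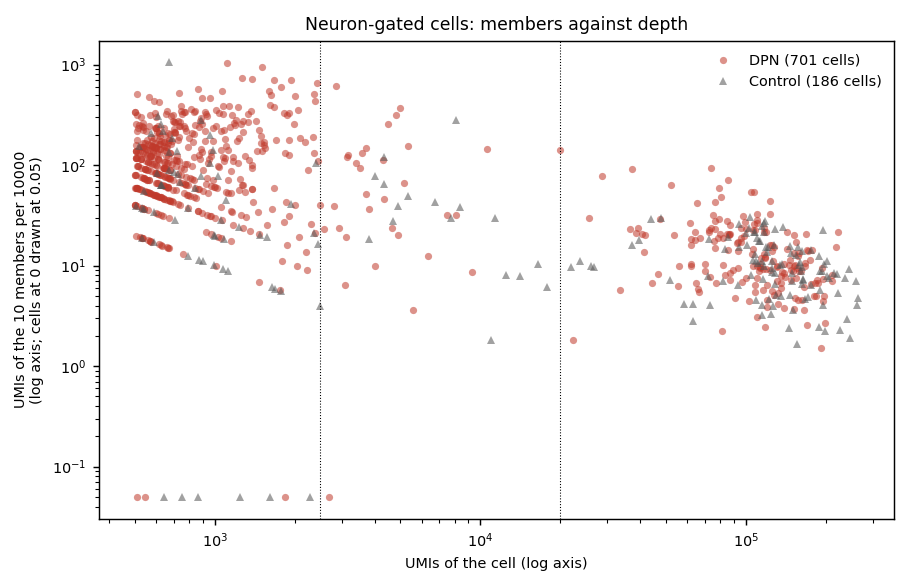
Each point is 1 cell of the neuron gate, with its UMIs on the horizontal log axis and the UMIs of the 10 members per 10000 on the vertical log axis; cells without a member UMI are drawn at the foot of the plot, circles are DPN and triangles control cells, and dotted lines mark 2500 and 20000 UMIs. The cells form a shallow group, of 485 DPN and 61 control cells under 2500 UMIs, and a deep group with far fewer member UMIs per 10000.

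Depth and mitochondrial share differed between the libraries in most gates, so the summed level of the members was also compared within bins of each that held at least 20 cells of both libraries. Over all cells the sum was 10974 CPM in control and 17882 CPM in DPN satellite glia, a ratio of 1.63, and over 5 bins of depth the ratio ran from 1.25 to 1.66. In endothelium the ratio was 1.38 (18899 and 26063 CPM), and 1.30 to 1.85 over 5 bins. Fibroblasts had 1.68 (13738 and 23107 CPM), and 1.57 to 1.73 over 3 bins. The ratio was thus above 1 in each depth bin of these types. Myelinating Schwann cells had 1.32 (13696 and 18111 CPM) and 1.04 to 1.52 over 4 bins. Smooth muscle had 1.21 (22660 and 27307 CPM), and 0.986 to 1.32 over 4 bins, with the lowest in cells of 10000 to 20000 UMIs. The neuron gate had 1.66 (1065 and 1765 CPM), and over 3 bins 1.21, 8.56 and, in the deep cells, 1.38. The value of 8.56, at 1000 to 2500 UMIs, rested on 21 control cells. Over bins of the mitochondrial share the lowest ratios were 1.28 in satellite glia, 1.17 in myelinating Schwann cells, 1.23 in endothelium, 1.17 in smooth muscle, 1.67 in fibroblasts and 1.14 in the neuron gate. Of single members, Nr4a1 was under 1 in every depth bin of myelinating Schwann cells, endothelium and smooth muscle, and Fos was above 1 in every depth bin except 2 of 4 in smooth muscle.

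**Figure D5:**
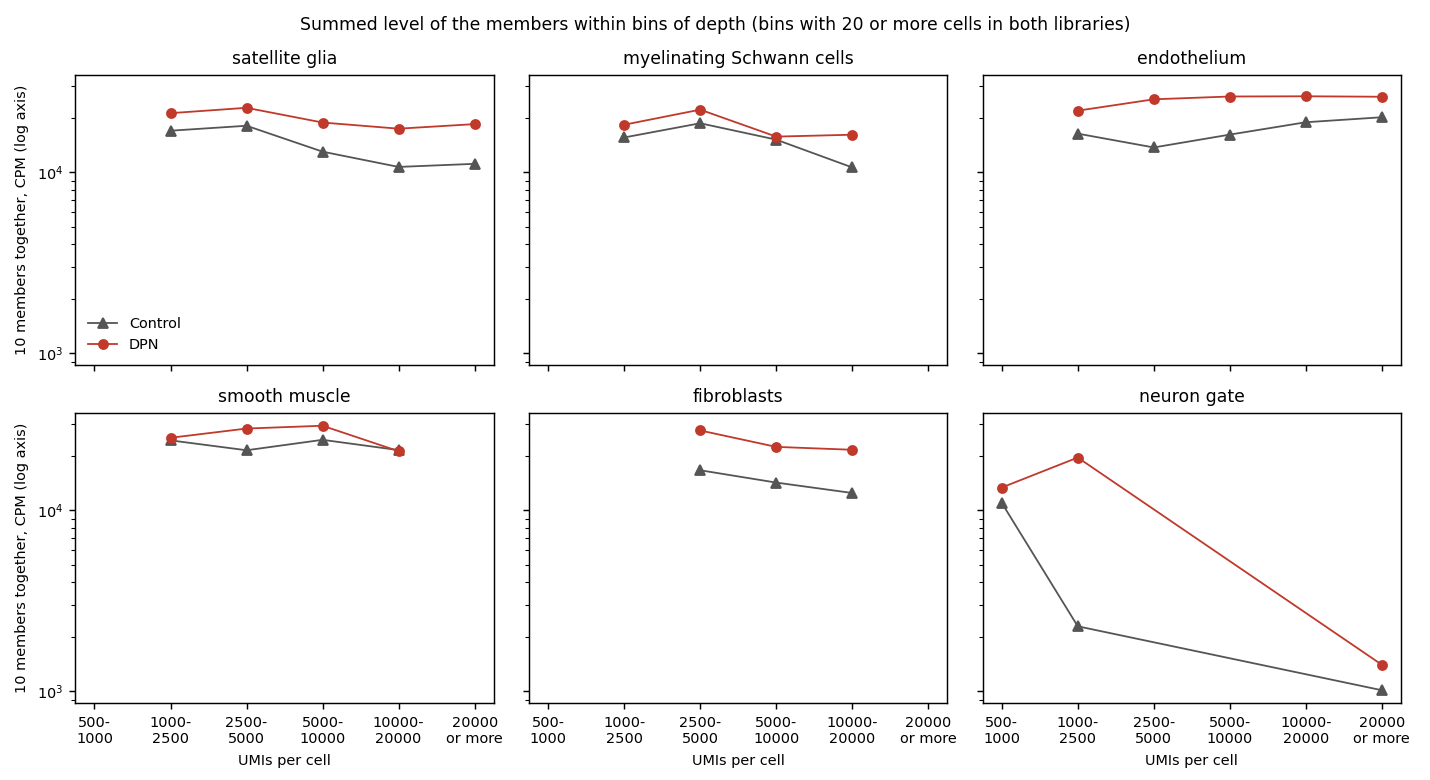
The summed level of the 10 members (vertical log axis, CPM) is drawn against the depth of the cells (horizontal axis, bins of UMIs per cell with at least 20 cells in both libraries), with circles for the DPN and triangles for the control library. The DPN line lies above the control line in satellite glia, endothelium, fibroblasts and the neuron gate, and the lines meet in smooth muscle cells of 10000 to 20000 UMIs.

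Other genes of the pathway were taken from lists set by name. Their counts are to be read against the shares of all counted genes that rose, 27.2% in satellite glia, 20% in myelinating Schwann cells, 19.6% in endothelium, 20.1% in smooth muscle, 25.7% in fibroblasts and 23.2% in the neuron gate. The lists were not split by depth, so their values in the neuron gate include its shallow cells and are not those of neurons alone. Of the 19 other immediate early transcription factors (Fosl1, Egr2, the Klf family and others) 5 of 17 counted rose in satellite glia, 2 of 14 in myelinating Schwann cells, 2 of 17 in endothelium, 1 of 14 in smooth muscle, 7 of 15 in fibroblasts and 6 of 15 in the neuron gate. The shares were 29.4%, 14.3%, 11.8%, 7.14%, 46.7% and 40.0% in that order, under the share of all genes in myelinating Schwann cells, endothelium and smooth muscle. Hes1, in endothelium, was the 1 gene of that list that fell. Klf6, a zinc finger factor of injury responses, rose in 4 of the 6 gates. Of the 18 feedback genes, which encode phosphatases of MAP kinases, RNA-decay proteins and inhibitors of signalling, 6 of 17 rose in satellite glia, 3 of 16 in myelinating Schwann cells, 2 of 18 in endothelium, 2 of 16 in smooth muscle, 6 of 16 in fibroblasts and 4 of 17 in the neuron gate, and 0 fell. These are 35.3%, 18.8%, 11.1%, 12.5%, 37.5% and 23.5%, above the share of all genes by more than 5 percentage points in satellite glia and fibroblasts.

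Socs3, which restrains JAK-STAT signalling, had the highest mean log2 ratio over the gates of the 98 list genes counted in all 6, at 1.72. It rose in each gate, with 18.4 and 73.4 CPM in satellite glia (95% interval of the ratio 3.72 to 4.30) and a ratio of 3.36 (2.95 to 3.84) in endothelium. Dusp1, the phosphatase that switches off MAP kinases and is itself an immediate early gene, followed the members less evenly. Its ratio was 1.86 (1.78 to 1.95) in satellite glia, 1.46 in myelinating Schwann cells and 1.16 in fibroblasts, against 0.941 (0.913 to 0.969) in endothelium and 0.952 in smooth muscle.

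Of 18 kinases and factors upstream of the members, 7 of 18 rose in satellite glia, 3 of 14 in myelinating Schwann cells, 5 of 16 in endothelium, 3 of 14 in smooth muscle, 3 of 11 in fibroblasts and 6 of 16 in the neuron gate, and Crem fell in endothelium. The shares of 21.4% in myelinating Schwann cells and smooth muscle and 27.3% in fibroblasts were near those of all genes, and those of 38.9% in satellite glia, 31.2% in endothelium and 37.5% in the neuron gate were above them. Of 15 further basic leucine zipper proteins that can pair with AP-1 subunits, 5 of 14 rose in satellite glia, 3 of 11 in myelinating Schwann cells, 3 of 13 in endothelium, 1 of 11 in smooth muscle, 3 of 11 in fibroblasts and 6 of 12 in the neuron gate. In endothelium (23.1%) and fibroblasts (27.3%) this was near the share of all genes, and in smooth muscle (9.09%) under it. Atf2, a partner of Jun at cAMP response elements, had a mean log2 ratio of 1.32 over the gates and stood at 7.48 and 19.1 CPM in satellite glia, a ratio of 2.55 (2.26 to 2.89). Its interval held 1 in smooth muscle, at 1.40 (0.909 to 2.19).

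Among 19 further early-induced genes, mostly effectors such as secreted factors and kinases (17 with a symbol), 6 of 16 rose in satellite glia, 2 of 12 in myelinating Schwann cells, 3 of 15 in endothelium, 5 of 15 in smooth muscle, 8 of 14 in fibroblasts and 5 of 14 in the neuron gate, while Ccn2 fell in smooth muscle and Cxcl1 in the neuron gate. Against all genes, the shares were near or under the background in myelinating Schwann cells (16.7%) and endothelium and above it in satellite glia (37.5%), smooth muscle (33.3%), fibroblasts (57.1%) and the neuron gate (35.7%). Bhlhe40, a repressor of the circadian clock and of stress responses, rose in all 6 gates, in satellite glia from 39.3 to 110 CPM with a ratio of 2.80 (2.66 to 2.95). Of 15 injury-related targets of Jun and Atf3, 6 to 11 were counted in a gate and 1 rose in each, a smaller share than that of all genes: Gap43, the growth-cone protein, in satellite glia, Schwann cells, endothelium and smooth muscle, Cd44 in fibroblasts and Sox11 in the neuron gate. Gap43 is also 1 of the 7 neuron markers, whose sum was 126 and 209 CPM in satellite glia, 189 and 553 CPM in myelinating Schwann cells, 94.6 and 174 CPM in endothelium and 214 and 446 CPM in smooth muscle. The part of that sum in the calls of Gap43 was not tested. In satellite glia 3 of 9 counted genes of the list fell (Timp1, Plaur and Ccl2), where 2.43% of all genes did. In myelinating Schwann cells 2 of 6 fell, against 5.16% of all genes, and in endothelium 2 of 7, against 4.97%. Smooth muscle had 1 of 7, against 3.89%, and fibroblasts and the neuron gate had 0. Timp1, an inhibitor of matrix proteases, was at 1428 and 816 CPM in satellite glia, a ratio of 0.571 (0.564 to 0.579).

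Genes of the heat shock response, which warm digestion and handling are also known to induce, were lower in the DPN library by their median in 5 of the 6 gates. Of 13 chaperones 12 had a symbol and 11 were counted in each gate, and 1 fell in satellite glia, 1 in myelinating Schwann cells, 3 in endothelium, 5 in smooth muscle, 1 in fibroblasts and 0 in the neuron gate, where Dnaja1 rose. Of all counted genes 2.43%, 5.16%, 4.97%, 3.89%, 3.93% and 2.20% fell in that order. The median log2 ratios of the chaperones were -0.20, -0.29, -0.42, -0.41, 0.11 and -0.20 in the same order. Hspa1b encodes a stress-induced chaperone whose near-identical copy Hspa1a has no symbol in the counts, so that reads of both may be concerned. It had the lowest mean log2 ratio of the 98 genes (-0.83) and stood at 1789 and 1021 CPM in satellite glia, a ratio of 0.571 (0.564 to 0.578), and at 9650 and 4988 CPM in endothelium, a ratio of 0.517 (0.512 to 0.522). Hspa1b fell in all gates but that of neurons, where the ratio was 0.866 (0.818 to 0.917). The next lowest means were those of Timp1 (-0.52) and Hspe1 (-0.49), a mitochondrial chaperonin.

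Of the 10 long and nuclear-retained transcripts listed 5 had a symbol. Of those, 2 of 5 rose in satellite glia, 2 of 4 in myelinating Schwann cells, 3 of 4 in endothelium, 3 of 4 in smooth muscle, 3 of 4 in fibroblasts and 4 of 5 in the neuron gate, with median log2 ratios of 0.50 to 0.85, and so few genes allow no statement on the class. Of 15 counted ribosomal protein genes none rose, Rps6 fell in myelinating Schwann cells, and the medians ran from -0.27 to -0.11. The part of these differences in the ratios of the members was not tested.

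Over the 12 sums (6 gates in 2 libraries), each member's log2(CPM + 1) had a Pearson's r of at least 0.89 with the mean of the other 9, lowest for Jund (0.89) and Nr4a1 (0.90) and highest for Fos, Jun and Egr1 (0.99). The 5 other genes with the highest r to the mean of the members, out of 5337 counted in every gate, were Ss18 (0.989), H3f3a (0.986), LOC100909712 (0.986), Nasp (0.981) and Sertad1 (0.981). These 12 points share 2 libraries, and both sums of the neuron gate are the lowest points of every member.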

How the data were processed

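The authors deposited raw counts of UMIs, a matrix of genes by barcodes per library, from Cell Ranger 3.1.0 with STAR. No source used here names the genome build, and whether reads were down-sampled is not clear from the methods. The members, gates and gene lists were chosen with earlier results of these data known. Counts of identifiers that share a symbol (147 symbols) were added.

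Gates, per 10000 UMIs, were Fabp7 and Tyrp1 (12) for satellite glia, Prx, Mag and Cldn19 (5) for myelinating Schwann cells, Cldn5, Flt1 and Cdh5 (10) for endothelium, Myh11 (2) for smooth muscle, Lum (5) for fibroblasts, and Stmn2, Prph and Snap25 (25) for neurons. Their genes are no findings. Counts were summed per gate and library, with exact Poisson intervals for levels, Clopper-Pearson for shares and conditional binomial for ratios. No doublet caller was run, and cells in more than 1 gate were left out in an alternative. Named genes were all 10 members, the 3 highest and 3 lowest list genes by mean log2 ratio, Hspa1b and Dusp1, and the 5 most like the members. Other genes were named after their values had been seen. Alternatives changed the scaling, denominator, mitochondrial limit, depth limits, thinning, gate threshold, cell weights and count minimum. The calling was tested on simulated counts with counting error only. They held no spread between pools, so this test cannot show how the calls fare under such spread. Python 3.11.15, numpy 2.4.6, scipy 1.17.1 and pandas 2.3.3 were used.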

Additional observations from a re-analysis of the deposited data

Results flagged for a closer look

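For 4 members the 95% interval of the ratio of DPN over control lay wholly under 1 in some gates and wholly over 1 in others. Egr3 was left out of these, since its ratio of 0.899 in myelinating Schwann cells had an interval that held 1. No difference between cell types was tested, since each rests on the same 2 libraries. The ratio of Junb was 0.977 in endothelium and 1.44 in the neuron gate, and that of Ier2 was 0.964 in endothelium and 1.74 in the neuron gate. The neuron gate includes shallow cells, without which Junb had a ratio of 1.17 and Ier2 of 1.31. Atf3 had a ratio of 0.979 in satellite glia and 2.31 in fibroblasts. Nr4a1 had ratios of 0.883 in myelinating Schwann cells, 0.726 in endothelium and 0.756 in smooth muscle, against 1.13 in satellite glia.

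Some of these directions turned within bins of the mitochondrial share or of depth. Atf3 in satellite glia was under 1 in none of the 3 bins from 5 to 20%, at 1.20, 1.03 and 1.08. Over bins of depth it was 0.947 at 5000 to 10000 UMIs and 0.949 at 10000 to 20000, with intervals under 1. In the other depth bins its interval held 1. Junb in endothelium ran from 0.913 under 5% to 1.10 at 10 to 15%, and Ier2 there from 0.859 to 1.04 in the same bins. By depth, Junb there was 1.35 (1.25 to 1.45) at 2500 to 5000 UMIs and 1.14 (1.09 to 1.19) at 5000 to 10000. Ier2 was 1.21 (1.10 to 1.33) and 1.09 (1.02 to 1.15) in these bins. In the other depth bins of endothelium both ratios were under 1, with 0.916 for Junb and 0.917 for Ier2 at 20000 UMIs or more. Nr4a1 stayed under 1 in all 4 mitochondrial bins of endothelium, at 0.684 to 0.811, but was 1.12 at 10 to 15% in myelinating Schwann cells and 1.23 at 15 to 20% in smooth muscle, both with intervals that held 1. In satellite glia it was above 1 in all 4 such bins. By depth its interval there lay above 1 only from 10000 UMIs on, at 1.16 (1.13 to 1.20) and 1.17 (1.06 to 1.29). In the shallower bins the interval held 1. Its log2 ratio of 0.17 in satellite glia was under the median of all counted genes, 0.21.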

How the results depend on the processing

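Each condition is 1 pool of rats, so intervals hold no spread between rats and no leave-one-out value could be had. No paired analysis was possible because the control and DPN pools came from different rats. In satellite glia and endothelium the number of risen members stayed within 1.5 times the reported one under every change of scaling, denominator, limits, thinning, gate threshold, cell weights and count minimum, and Egr1, Fos, Fosb and Jun in satellite glia, Fosb and Jund in endothelium, Atf3, Egr1 and Fosb in fibroblasts, and Fos and Jun in the neuron gate rose under each. Over these settings the share of all genes that rose ran from 18.0% to 28.4% in satellite glia and from 14.7% to 21.6% in endothelium. In fibroblasts median-ratio scaling left 3 of 10 risen, against 17.1% of genes. In myelinating Schwann cells 0 rose under median-ratio scaling, a mitochondrial limit of 10%, thinning, cells of 1 gate only, a doubled gate threshold and the mean over cells. Of all genes 12.4% to 22.8% rose in that gate under the same settings. In smooth muscle 0 rose under median-ratio scaling and the doubled threshold, where 15.9% and 17.7% of genes did. With mitochondrial UMIs left out of the totals and with thinning 2 rose, against 20.6% and 13.1% of genes. By the mean over cells 3 rose, against 21.3%. In the neuron gate 9 of 9 counted members rose with the 10% limit, the upper depth limit of 4 MADs, thinning and the mean over cells. Of all genes 25.8%, 17.4%, 11.9% and 33.6% rose under these settings, and 7.51%, 18.9%, 13.2% and 17.7% fell. The depth limit, thinning and the mean over cells lower the weight of deep cells by construction. With the doubled threshold 2 of 9 rose, near the 22.1% of all genes. Alternatives chosen after seeing the data split the neuron gate by depth. Among its cells with at least 20000 UMIs 2 of 9 members rose, near the 21.8% of all genes. Among those with under 2500 UMIs 8 of 9 rose, against 9.54%, with only 61 cells on the control side. No member fell under any of these settings, while over gates and settings 1.55% to 18.9% of counted genes fell. The causes of these changes were not tested. Depth limits Egr3, with 22 to 977 UMIs per gate.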
